A study of Mus musculus with 6 samples.

Results

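The miR-99, miR-100 and miR-125 miRNAs are 5 mature 5p miRNAs of mouse (mmu), mmu-miR-99a-5p, mmu-miR-99b-5p, mmu-miR-100-5p, mmu-miR-125a-5p and mmu-miR-125b-5p, and were picked by name from the 1247 mouse miRNAs on the array. Their genes lie next to a let-7 gene in 3 genomic clusters, an arrangement that is old in animals. A miRNA pairs with messenger RNAs mainly through its seed, bases 2 to 8, and lowers their translation or stability. miR-125 is the vertebrate relative of lin-4, the founding miRNA of the worm, miR-99 and miR-100 are known to repress Mtor, a kinase that promotes cell growth, and let-7 miRNAs restrain growth and developmental genes. In liver, miR-125b-5p has been described in activated stellate cells, the main source of collagen in fibrosis.

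The study profiled liver RNA of male C57BL/6 mice, with 1 array for each liver. Carbon tetrachloride (CCl4), a solvent that injures hepatocytes and leads to fibrosis on repeated dosing, was injected intraperitoneally at 0.6 mL/kg, dissolved in corn oil, into the treated mice. The control mice received corn oil alone. The study treated 6 mice per group, and 3 livers of each group are on the arrays. Mice of both groups were 7 weeks old at the first dose, were dosed 2 times per week over 10 weeks, and were killed 48 h after the final dose.

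All 6 arrays lay on 1 slide, the CCl4 arrays in row 1 and the corn oil arrays in row 2, so slide position and treatment cannot be told apart. The number of miRNAs flagged as detected by the scanner software was 193, 186 and 187 in the control livers and 245, 227 and 334 in the CCl4 livers. miR-122-5p, the most abundant of the hepatocyte miRNAs listed, was detected on all 6 arrays of this tissue, labelled as liver. Its total signal, a background-subtracted intensity that is not scaled between arrays, was 17855, 16613 and 18345 in the control livers and 13110, 15544 and 2158 in the CCl4 livers. CCl4 replicate 3 thus stood apart from the other CCl4 livers, and the main results below are given with and without it. Over the 166 miRNAs detected on all 6 arrays, the median log2 change of the total signal from the corn oil mean was 0.55, 0.35 and 2.05 on CCl4 replicates 1, 2 and 3, so changes before scaling have to be read against these values.

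The family holds 2 seeds, each shared by several members. The mature sequences, from the RefSeq miRNA table of assembly GRCm38.p6, are shown because members of 1 seed gave different changes with CCl4; the capitals mark the seed.
miR-99a-5p: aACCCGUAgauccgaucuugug
miR-100-5p: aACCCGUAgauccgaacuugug
miR-99b-5p: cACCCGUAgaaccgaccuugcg
miR-125a-5p: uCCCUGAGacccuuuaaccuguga
miR-125b-5p: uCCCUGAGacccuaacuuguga
Counted from the 5′ end, miR-99a-5p and miR-100-5p differ by 1 substitution, U16A, and miR-99a-5p and miR-99b-5p differ by 4, A1C, U11A, U16C and U21C. miR-125a-5p, of 24 bases, and miR-125b-5p, of 22, share their first 13 and last 5 bases. Whether the probes of 1 member also bound a close relative was not tested.

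In the same assembly, Mir99b (mature miRNA at chr17:17830194-17830215, plus strand), Mirlet7e and Mir125a (chr17:17830817-17830840, plus strand) lie together in 692 bp within the span of Spaca6. Mir99a (chr16:77598940-77598961, plus strand), Mirlet7c-1 and Mir125b-2 (chr16:77646279-77646300, plus strand) extend over 47.4 kb. Mir100 (chr9:41531437-41531458, plus strand), Mirlet7a-2 and Mir125b-1 (chr9:41581940-41581961, plus strand) extend over 50.6 kb within the long noncoding RNA gene Mir100hg. Both miR-125b genes give the same mature sequence, so the array cannot assign miR-125b-5p to either cluster. let-7c-5p and let-7a-5p also have further genes elsewhere, whereas the miRNAs of the Mir99b cluster are listed with 1 gene each.

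All 5 members were detected on all 6 arrays. Before scaling, the total signals of all 3 CCl4 arrays lay above those of all 3 corn oil arrays for each of the 5, but 63.3% of the 166 miRNAs did the same. The members differed in how far they lay above this general shift. miR-99b-5p and miR-125a-5p, both of the Mir99b cluster, lay well above it on every CCl4 array, miR-125b-5p and miR-100-5p lay above it on CCl4 replicate 1 and closer to it on replicate 2, and miR-99a-5p stayed close to it on both.

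mmu-miR-99b-5p gave total signals of 6.57, 5.63 and 7.59 in the control livers and 36.9, 26.5 and 220 in the CCl4 livers. All 3 CCl4 livers were thus higher than every control liver, and CCl4 replicate 3 was the highest. Of its 40 spots, 40.0%, 22.5% and 47.5% stood well above background in the control livers, against all spots in the CCl4 livers, so its fold change is only a lower bound. The bound sets the CCl4 mean against a floor in each corn oil array, which is the higher of 2 values, its own signal or the dimmest signal among miRNAs with over 50% of their spots well above background. Without scaling it was at least 5.60-fold higher in the CCl4 livers, and at least 2.92-fold without CCl4 replicate 3.

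The 2 probes of miR-99b-5p, with 20 spots each, were not treated alike by the scanner software. On the corn oil arrays the total signal held the brighter probe alone, and on the CCl4 arrays it held both. The brighter probe gave 6.57, 5.63 and 7.59 in the control livers and 24.9, 18.2 and 149 in the CCl4 livers, but 70.0%, 45.0% and 90.0% of its spots stood well above background in the control livers, so no exact fold is given for it. For the dimmer probe, no more than 10.0% of the spots passed that mark on any corn oil array. With both probes summed on every array, the signals were 9.42, 8.77 and 10.8 in the control livers and 36.9, 26.5 and 220 in the CCl4 livers, so part of the difference in total signal lay in the unequal number of probes. The other 4 members had both probes in the total on all 6 arrays. Among the 166 miRNAs, 31 had unequal numbers of probes in the total between arrays.

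mmu-miR-125a-5p, encoded beside miR-99b-5p but with the other seed, gave total signals of 26.8, 20.1 and 27.6 in the control livers and 87.9, 66.0 and 556 in the CCl4 livers. The groups did not overlap, and CCl4 replicate 3 was again the highest. Its change before scaling was 6.01-fold, and 3.10-fold without CCl4 replicate 3. Its brighter probe, with all spots well above background on all 6 arrays, gave a fold of 6.02, and the dimmer probe had at most 70.0% of its spots at this mark in any control liver, so it gives no exact fold.

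let-7e-5p, the let-7 miRNA of the same cluster, gave 55.3, 41.8 and 62.9 in the control livers and 179.9, 125.1 and 1349.4 in the CCl4 livers. Its change was 5.93-fold, and 2.85-fold without CCl4 replicate 3. Set side by side, miR-125a-5p and let-7e-5p showed folds of 3.58 and 3.42 on CCl4 replicate 1, 2.69 and 2.38 on replicate 2, and 22.6 and 25.7 on replicate 3. For miR-99b-5p the bounds were at least 3.45, 2.48 and 20.5 on replicates 1, 2 and 3.

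mmu-miR-99a-5p, of the chromosome 16 cluster, gave total signals of 102, 93.5 and 113 in the control livers and 150, 121 and 750 in the CCl4 livers. The groups did not overlap, but CCl4 replicate 2 lay close to the controls. Relative to the median of the 166 miRNAs its log2 change was -0.0029 and -0.11 on CCl4 replicates 1 and 2 and 0.81 on replicate 3. let-7c-5p gave 938, 830 and 998 in the control livers and 1245, 989 and 10584 in the CCl4 livers, where replicate 2 overlapped with the controls.

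mmu-miR-100-5p, of the chromosome 9 cluster, gave total signals of 25.3, 24.1 and 31.4 in the control livers and 54.4, 34.6 and 171 in the CCl4 livers. CCl4 replicate 2 was again the closest to the controls. Its log2 change relative to the median was 0.48, 0.02 and 0.62 on CCl4 replicates 1, 2 and 3. let-7a-5p gave 1193, 1050 and 1245 in the control livers and 1400, 1215 and 6945 in the CCl4 livers, so the groups overlapped.

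mmu-miR-125b-5p, from both of these clusters, gave total signals of 165, 156 and 210 in the control livers and 447, 255 and 2730 in the CCl4 livers. The groups did not overlap. Its log2 change relative to the median was 0.80 and 0.19 on CCl4 replicates 1 and 2 and 1.91 on replicate 3, so the CCl4 livers lay far apart.

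**Figure D1:**
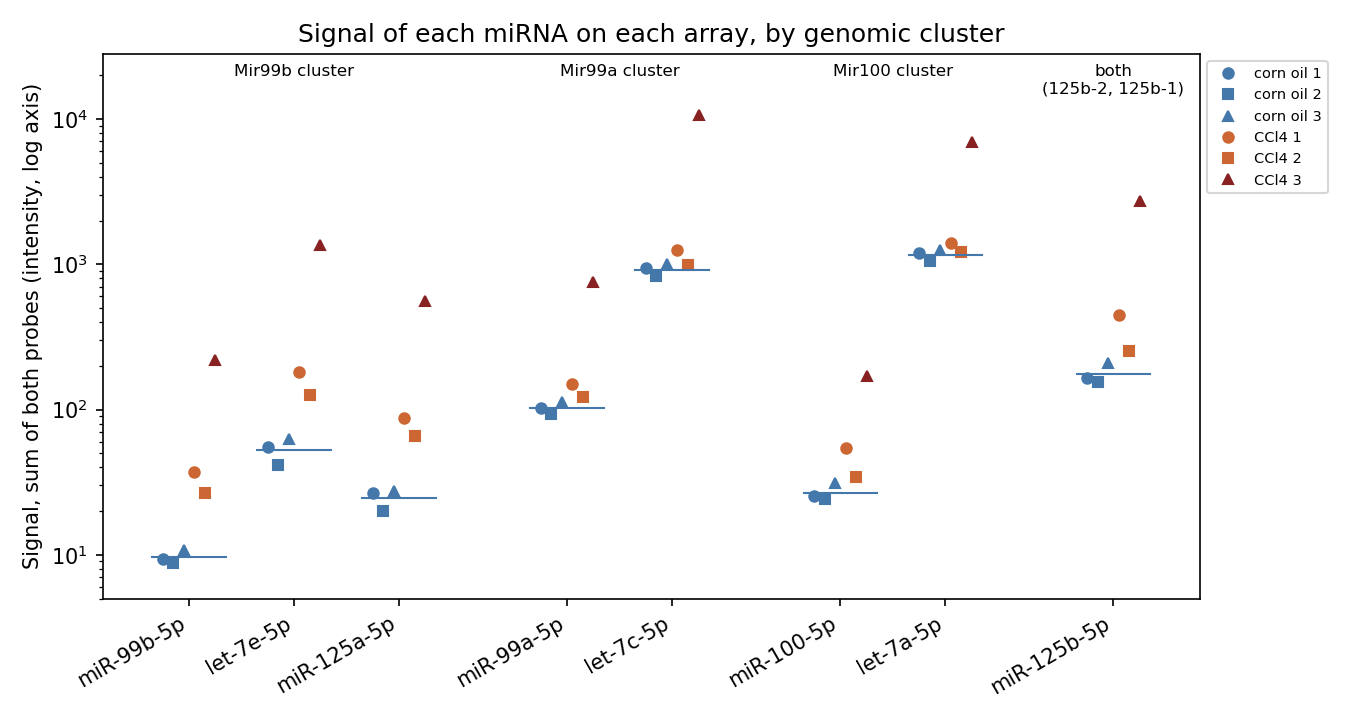
Signal of the 5 miRNAs and the let-7 miRNAs of their clusters on each array, as the sum of both probes (intensity, log axis); each point is 1 liver and each line the geometric mean of the 3 corn oil livers. CCl4 replicates 1 and 2 stand clear of the corn oil livers for the Mir99b cluster and lie nearer to them for let-7c-5p and let-7a-5p, and CCl4 replicate 3 is the highest for all 8 miRNAs.

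To compare the groups on a common scale, the log2 total signals of the 166 miRNAs were quantile normalized, and limma was fitted to them. Calls needed a fold change over 2 together with an adjusted p (Benjamini-Hochberg) under 0.05. Of the 5 members, 1 was called higher, against 7.23% of the 166 miRNAs. The called member was miR-99b-5p, with normalized log2 signals of 3.26 ± 0.03 (SD, n = 3 livers) in the control livers and 5.18 ± 0.73 in the CCl4 livers. Its change was 1.93 (standard error 0.38, limma adjusted p = 0.030), with a bound of at least 2.40-fold over all 3 CCl4 livers. That bound includes CCl4 replicate 3, with a normalized log2 signal of 6.02, against 4.89 and 4.64 on replicates 1 and 2. The mean floor of the corn oil arrays was 3.92. No normalized bound was set without CCl4 replicate 3, so a minimum of 2-fold is not fixed for the other CCl4 livers. The call was lost without CCl4 replicate 1 (adjusted p = 0.068) and without corn oil replicates 1, 2 or 3 (adjusted p = 0.11, 0.14 and 0.11), and the limma adjusted p ranged from 3.8e-04 to 0.14 over all alternatives. It also rested on the total signal. With both probes summed on every array, a choice made after the data were seen, the change was 1.46 and the limma adjusted p was 0.061. In that fit 0 of the 5 members were called, against 4.82% of the 166 miRNAs, while 2 had an unadjusted limma p under 0.05. The share of the 166 miRNAs at that unadjusted mark is not given, here or below, so such counts are descriptions only. Without CCl4 replicate 3 the change with both probes summed was 1.02 (limma adjusted p = 3.3e-03), and 1 of the 5 members was called, against 8.43%. That change only just passed the fold threshold and includes control spots near background. No bound was set for it, so whether it exceeds 2-fold was not resolved.

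Normalized signals of all 3 CCl4 livers lay above all 3 control livers for 2 of the 5 members, miR-99b-5p and miR-125a-5p, against 14.5% of the 166 miRNAs. With both probes summed the count was again 2 of 5, against 15.7%. miR-125a-5p went from 5.22 ± 0.20 to 6.45 ± 0.89 (SD, log2, n = 3 livers each), a change of 1.23 with a 95% interval of 0.06 to 2.40 before adjustment. It was not called, with a limma adjusted p of 0.16. The change of let-7e-5p was 1.09 (standard error 0.51, adjusted p = 0.21), or 0.55 without CCl4 replicate 3 (adjusted p = 0.084), and its groups did not overlap either.

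The other 3 members were not called. The change of miR-125b-5p was 0.88 (standard error 0.48, limma adjusted p = 0.27), with an SD of 0.93 in the CCl4 livers. That of miR-99a-5p was -0.23 (95% interval -1.22 to 0.76, adjusted p = 0.70), but 0.06 after scaling of the arrays to the 75th percentile and 1.22 without scaling. That of miR-100-5p was -0.01 (95% interval -0.53 to 0.51, adjusted p = 0.99), but 0.20 with 75th percentile scaling and 1.36 without scaling. The choice of scaling thus set the sign of these last 2, and the median of the 166 miRNAs moved from -0.14 with quantile normalization to 0.99 without scaling.

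Without CCl4 replicate 3, the same fit gave smaller standard errors for all 5 members. Of the 5 members, 1 was called higher, against 9.64% of the 166 miRNAs, and 3 passed the adjusted p alone in either direction, against 52.4%. miR-99b-5p changed by 1.46 (limma adjusted p = 1.8e-03) and miR-125a-5p by 0.68 (limma adjusted p = 0.023). The value for miR-99b-5p includes control spots near background, and no bound was set for it in this fit. Its call therefore does not fix a change over 2-fold. miR-99a-5p moved the other way, by -0.65 (adjusted p = 2.0e-03), and by -0.54 in the deposited table (limma adjusted p = 9.4e-03). It moved by -0.25 with 75th percentile scaling, where it did not pass (adjusted p = 0.10). Before scaling, the mean change of miR-99a-5p on CCl4 replicates 1 and 2 was 0.39, so its direction depended on the scaling. The change was 0.39 for miR-125b-5p and -0.15 for miR-100-5p, and neither passed the threshold.

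The changes of 2 members were compared within each array, where scaling between arrays plays no part. The difference of their log2 total signals was set against its mean in the corn oil livers, for 4 pairs with 1 seed and 3 pairs from 1 cluster. An exact permutation test of 3 livers against 3 cannot give a two-sided p below 0.1, so no pair can pass 0.05 and the sizes are the result. In the total signals the 2 groups did not overlap in 6 of the 7 pairs, each with an exact p of 0.1 (0.12 after Benjamini-Hochberg adjustment over the 7 pairs). With both probes summed this held for 5 of the 7. Over all 13695 pairs of the 166 miRNAs the groups did not overlap in 49.0% with total signals and 48.9% with sums.

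Among the miRNAs with the miR-99 seed, miR-99b-5p stood apart. Since it was dim in the control livers, its differences are given as lower bounds, with its signal raised to the background floor. Its change exceeded that of miR-99a-5p by at least 1.24, 1.07 and 1.49 on CCl4 replicates 1, 2 and 3, a mean of at least 1.27, or 1.16 without CCl4 replicate 3. It exceeded that of miR-100-5p by a mean of at least 1.13, or 0.85 without CCl4 replicate 3. The groups did not overlap in either pair. The signals as measured, which include spots near background, gave 1.42 and 1.28 with both probes summed and 1.97 and 1.84 in the total signals (exact permutation p = 0.1 each). miR-100-5p and miR-99a-5p, 1 base apart, differed by 0.48, 0.13 and -0.20 on the 3 CCl4 arrays, a mean of 0.14 (exact permutation p = 0.6). These values fall on both sides of 0 and their SD was 0.34, so no difference in their change was resolved.

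Between the miRNAs with the miR-125 seed, miR-125a-5p had a greater change in total signal than miR-125b-5p on each CCl4 array. The excess was 0.49, 0.89 and 0.54, a mean of 0.64 with SDs of 0.19 in the corn oil livers and 0.22 in the CCl4 livers (exact permutation p = 0.1). It was 0.69 without CCl4 replicate 3. On quantile-normalized values it was 0.01, 0.66 and 0.38, a mean of 0.35, and the groups overlapped. In both seed families, then, the member from the Mir99b cluster had the greater mean change, but for the miR-125 seed the separation of the groups depended on the scale.

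Within the Mir99b cluster, the change of miR-99b-5p exceeded that of miR-125a-5p by 0.60 in the total signals (exact permutation p = 0.1). With both probes summed the difference was 0.05, with SDs of 0.16 and 0.05 in the corn oil and CCl4 livers (exact permutation p = 0.7), and the bound with miR-99b-5p at the background floor was at least -0.10, so no difference was resolved. The difference seen in the total signals therefore depended on the probe that the software left out. let-7e-5p differed from miR-125a-5p by -0.06, -0.17 and 0.18 on the 3 CCl4 arrays, on both sides of the corn oil livers.

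In the other clusters, miR-125b-5p had a greater change than miR-99a-5p, with a difference of -0.73 for miR-99a-5p minus miR-125b-5p (exact permutation p = 0.1), and a greater one than miR-100-5p, with -0.59 (exact permutation p = 0.1). Without CCl4 replicate 3 these were -0.55 and -0.25. Since miR-125b-5p has 1 gene in each of the clusters, neither difference can be assigned to 1 of them. Their let-7 miRNAs were set beside them with no test. miR-99a-5p minus let-7c-5p was 0.11, 0.13 and -0.66 on CCl4 replicates 1, 2 and 3, on both sides of the corn oil livers. miR-100-5p minus let-7a-5p was 0.75, 0.30 and 0.09, of which the last overlapped with the corn oil livers.

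The let-7 miRNAs of the clusters share 1 seed as well, in capitals in the sequences shown to set let-7e-5p beside its relatives.
let-7e-5p: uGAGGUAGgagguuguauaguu
let-7a-5p: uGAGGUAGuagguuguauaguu
let-7c-5p: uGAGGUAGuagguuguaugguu
They were compared in the same way after their values were seen, with no test. let-7e-5p exceeded let-7c-5p in its change by 1.34, 1.14 and 1.16 on CCl4 replicates 1, 2 and 3 and exceeded let-7a-5p by 1.503, 1.18 and 2.10. The largest departure of a corn oil liver from its group mean was -0.18 and -0.19 in these pairs. On quantile-normalized values let-7e-5p minus let-7c-5p was 0.53, 0.37 and -0.50 on the same arrays, so the direction turned on CCl4 replicate 3, and let-7e-5p minus let-7a-5p was 0.75, 0.48 and 0.92. The greater change of let-7e-5p over let-7c-5p thus depended on the scale on that liver.

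**Figure D2:**
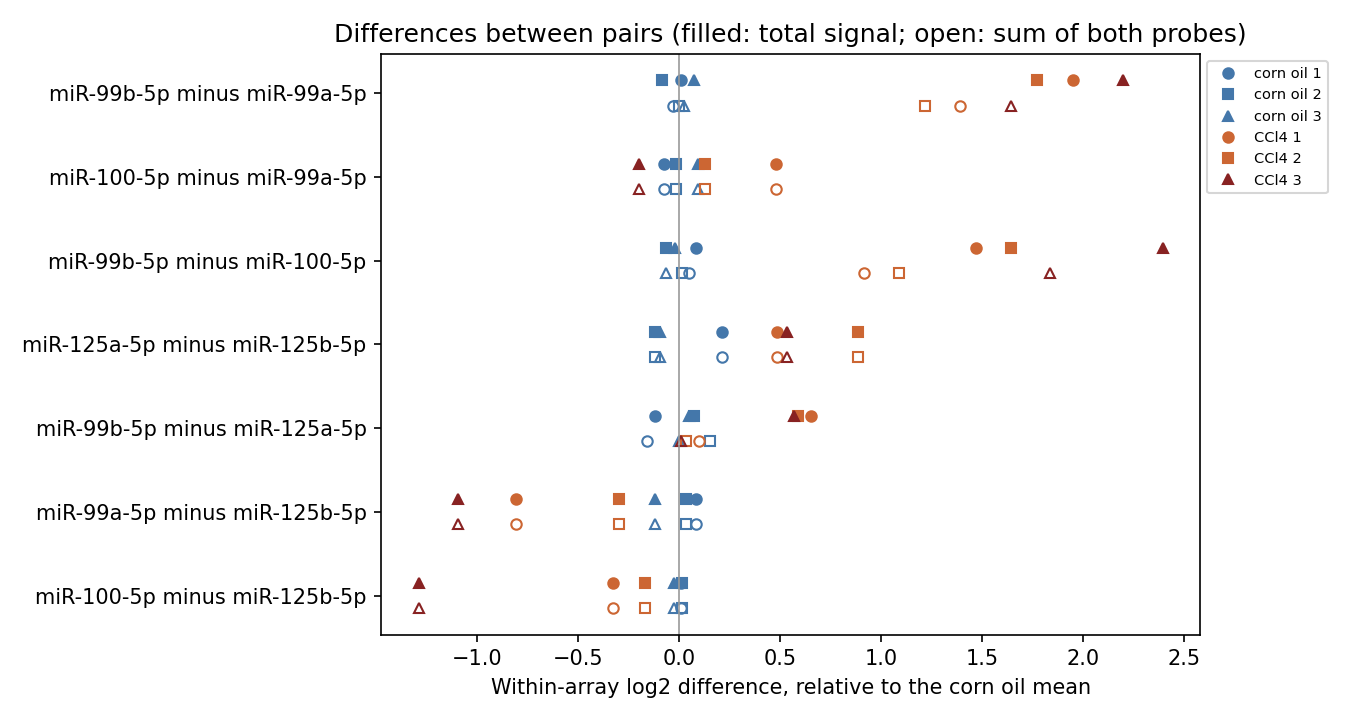
Difference of the log2 signals of 2 miRNAs within each array, relative to its mean over the corn oil livers, for 7 pairs; filled points use the total signal of the scanner software and open points the sum of both probes, and each point is 1 liver. The filled and open points part only for pairs with miR-99b-5p, and for miR-99b-5p minus miR-125a-5p the open points of both groups overlap.

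Of the let-7 family, 9 of the 11 miRNAs on the array were in the fit and 1 was called higher, let-7i-5p, against 7.23% of the 166 miRNAs, with a change of 1.07 (limma adjusted p = 0.022). It was also the 1 called without CCl4 replicate 3, against 9.64%, with 1.07 (adjusted p = 0.021). With 75th percentile scaling 0 were called, against 6.63%. Under that scaling 2 had an unadjusted p under 0.05 in the limma fit, a mark given without its share over all miRNAs. The median change of the 9 was 0.38, against -0.14 for all 166 miRNAs, and -0.03 without CCl4 replicate 3, against -0.12. The median of the 5 members was 0.88, and 0.39 without CCl4 replicate 3.

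The 6 opposite arms of the same hairpins were near or below detection. Of these, 1, miR-125a-3p, was detected in all 3 CCl4 livers and in 0 control livers, as were 1.76% of the 1247 miRNAs. Its signals were 12.9, 8.11 and 12.4, but no more than 42.5% of its spots stood well above background on any array, so no fold is given. miR-99b-3p was detected on CCl4 replicate 3 alone, and the arms miR-99a-3p, miR-100-3p, miR-125b-1-3p and miR-125b-2-3p on no array.

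By Pearson correlation of normalized signals over the 6 arrays, miR-27a-3p was the most like miR-99b-5p (r = 0.98), followed by miR-1949 and miR-500-3p (r = 0.96 each). let-7e-5p was the most like miR-125a-5p (r = 0.98), ahead of miR-27a-3p and miR-652-3p, and also the most like miR-125b-5p (r = 0.98), ahead of miR-23a-3p and miR-143-3p. miR-27b-3p, miR-30e-3p and miR-361-5p followed miR-99a-5p most closely (r = 0.97 to 0.99). miR-100-5p had no close match, with let-7f-5p first (r = 0.82), then miR-98-5p and miR-99a-5p. The 6 points share their treatment groups and the outlying liver, so these values are descriptions. Without CCl4 replicate 3 the order among these 3 differed for some members. For miR-99a-5p, r was 0.987 with miR-361-5p, 0.969 with miR-27b-3p and 0.967 with miR-30e-3p. For miR-125a-5p, r was 0.91 with let-7e-5p, 0.94 with miR-27a-3p and 0.96 with miR-652-3p. For miR-125b-5p it was 0.887 with let-7e-5p, 0.893 with miR-23a-3p and 0.972 with miR-143-3p. For miR-99b-5p it was 0.999 with miR-27a-3p and 0.91 with miR-500-3p, and for miR-100-5p it was 0.85 with let-7f-5p, 0.55 with miR-98-5p and 0.45 with miR-99a-5p, against 0.69 and 0.67 for the last 2 with all arrays.

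Lists of miRNAs taken as markers of liver cell types were read in the same livers. Whether each listed miRNA is limited to its cell type was not tested. The summed signal of the mesenchymal list (miR-199, miR-214, miR-143, miR-145 and miR-10b miRNAs) was 82.0, 67.2 and 109 in the control livers and 643, 255 and 1951 in the CCl4 livers. Of the 7 listed, 4 were in the fit and 2 were called higher, miR-199a-5p and miR-199b-5p, against 7.23% of the 166 miRNAs, and the same 2 were called without CCl4 replicate 3, against 9.64%. With all probes summed 1 was called, miR-199b-5p, against 4.82%, and miR-199a-5p, which was dim in the control livers, was not (limma adjusted p = 0.051); both were called with this sum when CCl4 replicate 3 was left out. The most abundant, miR-199a-3p, had a change of 1.28 (limma adjusted p = 0.059), and with 75th percentile scaling it was called too, which made 3, against 6.63%. miR-10b-5p was undetected on every array but CCl4 replicate 3, where its signal was 715. The summed immune list was 91.0, 77.7 and 90.7 in the control livers and 475, 346 and 457 in the CCl4 livers. Of its 3 miRNAs in the limma fit 0 were called, against 7.23% of the 166 miRNAs called higher, and 0 had an unadjusted p under 0.05. miR-223-3p, a myeloid miRNA and the most abundant of this list, had a change of 1.18 with all arrays (adjusted p = 0.18). Without CCl4 replicate 3 it was the 1 of the 3 called higher, against 9.64% of the 166 miRNAs, with 1.75 (limma adjusted p = 1.8e-03).

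The summed hepatocyte list was 20667, 19132 and 21051 in the control livers and 15134, 17911 and 3110 in the CCl4 livers. Most of each sum was miR-122-5p. On CCl4 replicate 3 the total signal of miR-101a-3p was 4.27-fold its corn oil mean. That of miR-122-5p, miR-192-5p, miR-194-5p, miR-148a-3p and miR-101b-3p was 0.12, 0.14, 0.16, 0.70 and 0.48-fold. Of the 6 miRNAs of this list in the limma fit 6 had a normalized change below 0, against 58.4% of the 166 miRNAs. Of these 6, 0 were called, against 8 of the 166 called lower. In the same fit 2 of them had an unadjusted p under 0.05, a mark given without its share over all miRNAs. The median change of the 6 was -1.65, and -0.64 without CCl4 replicate 3. Without that liver 1 was called lower, miR-101b-3p, with -1.20 (limma adjusted p = 1.8e-03), against 7.23% of the 166 miRNAs called lower, and miR-122-5p, which had the same rank by signal on all these arrays, had a normalized change of 0. The endothelial list, led by miR-126-3p, summed to 658, 563 and 677 in the control livers and 824, 821 and 3732 in the CCl4 livers. The red cell list, led by miR-451a, summed to 466, 754 and 700 in the control livers and 730, 315 and 2144 in the CCl4 livers. The epithelial list, led by miR-200b-3p, summed to 13.6, 10.4 and 48.8 in the control livers and 139, 25.1 and 16.9 in the CCl4 livers, with miR-141-3p and miR-200c-3p detected on no array. From each of these 3 lists 2 miRNAs were in the limma fit. Of these 0 were called, against 12 called higher and 8 called lower among the 166 miRNAs, and 0 had an unadjusted p under 0.05. The part of these cell types in the changes of the miR-99, miR-100 and miR-125 miRNAs was not tested, and in whole liver a shift in cell numbers and a change in RNA per cell cannot be told apart.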

How the data were processed

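Liver RNA of 6 mice was hybridized to 1-color arrays. The authors deposited scanner output from Feature Extraction 11.0.1.1, with intensities that are background subtracted and not scaled between arrays, and a table of quantile-normalized intensities of 111 miRNAs, used as an alternative. Other values per the file headers are flags and names. Total signals of the 166 of 1247 miRNAs detected on all 6 arrays were quantile normalized on the log2 scale and fitted with limma 3.58.1 (R 4.3.3); treatment was the sole term. The fit was tested on simulated data with independent noise and capped spreads. That simulation held no array that stands apart and no unequal numbers of probes. Pairs were compared with exact permutation tests in scipy 1.17.1. Sequences of 9 miRNAs were matched by name to RefSeq, GRCm38.p6.

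The members, marker lists and tests were chosen with earlier results of these data known. Named miRNAs are the members, the let-7 miRNAs and other arms of their clusters, the let-7 family, cell type markers, and the 3 miRNAs most correlated with each member. let-7i-5p was named after its values were seen. Alternatives covered normalization, filter, signal, background, the deposited table, a replicate block and each array left out. The number of arrays limits the precision.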

Additional observations from a re-analysis of the deposited data

Results flagged for a closer look

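The opposite arms of the family's hairpins did not enter the main fit, because none was detected on the corn oil arrays, yet some gave signal on the CCl4 arrays. miR-125a-3p had total signals of 12.85, 8.107 and 12.44 on CCl4 replicates 1, 2 and 3. miR-99b-3p had a total signal of 5.771 on CCl4 replicate 3. Both come from the Mir99b cluster, and the difference between groups was not tested for miR-99b-3p. miR-125a-3p entered limma only in the alternative with miRNAs detected in 1 whole group, where it was not called. It passed that filter through the CCl4 livers alone and had no measured signal on the corn oil arrays, so this fit cannot test its change.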

How the results depend on the processing

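After seeing the data, 3 kinds of setting were added: the sum of both probes, the background floor for miR-99b-5p within pairs, and the omission of CCl4 replicate 3 together with that sum, 75th percentile scaling or the deposited table. Over the 166 miRNAs 20 were called. The count was 11 with quantile normalization over all miRNAs, 32 of 215 with miRNAs detected in 1 whole group, 7 of 113 with a filter on spots (more than 50% well above background on all arrays), 4 with normexp background correction, 12 in the deposited table, 6 with the replicate number as a block, and 5 to 28 with 1 array left out.

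The log2 change of miR-99b-5p remained positive in all 16 alternatives that hold it and was called in 7. It lost its call without normalization (3.19), with the mean processed spot signal (1.51), with normexp (0.59), with the replicate block (1.93) and with both probes summed (1.46), and ranged from 1.46 to 2.20 with 1 array left out. Beyond the probes, the cause was not tested. miR-99b-5p is not among the miRNAs of the deposited table or of the filter on spots. miR-125a-5p and miR-125b-5p were positive in all 19 alternatives and called in 0, with limma adjusted p from 3.2e-03 to 0.39 and from 0.11 to 0.50.

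The sign of the change turned for miR-99a-5p with 75th percentile scaling (0.063) and without normalization (1.22). It turned for miR-100-5p with 75th percentile scaling (0.20, and 0.057 also without CCl4 replicate 3), without normalization (1.36), with the filter on spots (0.26) and in the deposited table (0.25), and ranged from -0.15 to 0.14 with 1 array left out. The cause was not tested, and none of these was called. Among pairs, miR-100-5p minus miR-99a-5p ranged from -0.033 to 0.30 with 1 array left out, and for miR-99b-5p minus miR-125a-5p the background floor gives only a lower bound, at least -0.10, which does not fix its direction. The other 5 pairs kept their direction in all alternatives.

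Livers of the same number did not deviate together, with correlations of their deviations of -0.18, 0.11 and 0.03, so the numbers do not pair them. The signal over background limits miR-99b-5p in the control livers and the opposite arms in both groups.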
